A study of Mus musculus with 64 samples.

Results

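Leukocytes hold on to other cells and to matrix through a small set of surface proteins, and 9 of the genes that encode them are described here in mouse macrophages: the cell-bound integrin ligands Icam1 and Vcam1, the alpha subunits of the beta2 integrins Itgal, Itgam and Itgax, their shared beta subunit Itgb2, the matrix-binding integrin subunits Itgav and Itgb1, and the hyaluronan receptor Cd44. The genes were chosen by name, with earlier results of these data known. Each is represented by its brightest probe set that carries that symbol alone, and all 9 were measured among 18820 genes in all. Only Itgb1 had a second such probe set, which was dimmer and was not used. Every value is the log2 of the deposited intensity, so a difference of 1 is a doubling, and levels of different genes are not set against each other because probe sets differ in brightness.

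Macrophages were grown from the femoral bone marrow of male mice 7 to 8 weeks old, of the strains BALB/c or C57BL/6, in CSF1 at 10000 U/ml, and were treated on day 7 in wells of 200000 cells. The wells of BALB/c cells were given 10 U/ml of IFN-beta, 10 U/ml of IFN-gamma or 5 ng/ml of lipopolysaccharide (LPS), and those of C57BL/6 were given 50, 5 or 0.5 ng/ml of LPS, each for 1, 2, 4, 8 or 24 h. With an untreated 0 h group for each strain this made 32 groups of 2 wells, 1 array per well, 64 arrays in all. CSF1 was common to all groups, and there were no untreated wells after 0 h, so time in culture and treatment cannot be told apart within a course. Whether the wells of a group came from separate animals is not stated, so p-values measure the spread between wells. In a bulk sample of this kind, fewer cells of a type and less RNA per cell cannot be told apart.

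An integrin is a pair of 1 alpha and 1 beta chain that grips its ligand when the cell is activated. The beta2 integrins LFA-1 (Itgal with Itgb2), Mac-1 (Itgam with Itgb2) and CD11c/CD18 (Itgax with Itgb2) are found on leukocytes and bind ICAM-1, complement fragments and fibrinogen. Beta1 and alpha-v integrins bind fibronectin, vitronectin and, as alpha4 beta1, VCAM-1. ICAM-1 and VCAM-1 are known as targets of NF-kB in activated endothelium and macrophages, and ICAM-1 is also a known target of interferon-gamma.

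The arrays were not uniform. On probe sets without a gene they parted into a set of 53 and a set of 11 arrays along the first principal component (11.4% of the variance). The labels name no batch. The split ran through 9 groups, and both IFN-beta 4 h arrays lay in the smaller set. Relative to the 53 arrays, the 11-array set differed by -0.62 ± 0.08 (SE) for Itgal and -0.42 for Vcam1. In addition 5 arrays stood apart, with over 1.5 log2 between them and their replicate in at least 10 genes: IFN-gamma 2 h replicate 1 and 4 h replicate 2, and in C57BL/6 replicate 1 at 1 h of 50 ng/ml, replicate 2 at 24 h of 5 ng/ml and replicate 1 at 1 h of 0.5 ng/ml. The C57BL/6 0 h arrays carried transcripts known as LPS targets, which were chosen after their values were seen: Nos2, the inducible nitric oxide synthase, read 10.63 and 10.44 there, against 4.41 and 4.56 after 1 h of LPS at 5 ng/ml and 3.54 and 3.78 in the BALB/c 0 h arrays. Every C57BL/6 course counted from 0 h rests on these arrays, so each member's changes are also given against 1 h. That base is not free of the same limit at the other doses. Nos2 at 1 h read 10.17 in replicate 1 and 5.34 in replicate 2 of 50 ng/ml, and 8.12 and 3.98 at 0.5 ng/ml. In the IFN-gamma arrays that stand apart Il1b, another LPS target chosen after its values were seen, read 8.41 at 2 h and 10.59 at 4 h. Their replicates read 4.19 and 4.415. The defining markers of macrophages were bright: Csf1r lay between 11.6 and 12.6 and Adgre1 between 11.9 and 13.2 in all 64 arrays. Of the markers of other cell types, 2 of 7 stromal (Lum, Pdgfra), 2 of 6 endothelial (Tek, Emcn), 4 of 6 lymphoid (Cd3g, Cd79a, Ms4a1, Ncr1) and 1 of 3 erythroid markers (Klf1) lay under the 40th percentile of all values (4.19) in every array, whereas Col1a1, Col1a2, Kdr and Tie1 lay above it in every array. The 8 granulocyte and precursor markers had group means from 4.45 to 5.89; Mmp8 ran from 5.73 to 9.34 and S100a8 from 4.29 to 6.26 over the arrays, and Camp lay under the percentile in 45.

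The RefSeq promoter table (assembly GRCm38.p6) held 6 of the 9 members. Vcam1, Itgal and Itgb2 were not among them. The 250 bases before the start site are shown for 3 members whose RNA took different courses, all on the plus strand, with matches in capitals to a motif searched on both strands. Icam1, on chr9:21015690-21015939, holds the kB core GGAAATTCC from position -153 to -145 and a match to the GAS motif TTCNNNGAA from -42 to -34. Itgax, on chr7:128129300-128129549, holds the AP-1 motif TGANTCA from -56 to -50. Itgam, on chr7:128062390-128062639, holds the PU.1 motif GAGGAAG from -84 to -78.
Icam1: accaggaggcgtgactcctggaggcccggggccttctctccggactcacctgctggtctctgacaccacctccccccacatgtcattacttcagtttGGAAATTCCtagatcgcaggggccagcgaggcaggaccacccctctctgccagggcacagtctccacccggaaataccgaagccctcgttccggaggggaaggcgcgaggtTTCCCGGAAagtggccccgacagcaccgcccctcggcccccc
Itgax: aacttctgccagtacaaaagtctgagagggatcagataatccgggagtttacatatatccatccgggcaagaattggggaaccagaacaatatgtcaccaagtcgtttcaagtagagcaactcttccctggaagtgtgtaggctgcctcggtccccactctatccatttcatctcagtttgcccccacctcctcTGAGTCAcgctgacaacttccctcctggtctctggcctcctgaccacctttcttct
Itgam: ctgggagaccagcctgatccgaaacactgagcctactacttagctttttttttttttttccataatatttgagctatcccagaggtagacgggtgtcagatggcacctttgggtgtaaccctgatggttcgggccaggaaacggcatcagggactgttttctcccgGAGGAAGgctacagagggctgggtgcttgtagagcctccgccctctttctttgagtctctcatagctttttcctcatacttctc
Of all 32851 windows in that table (250 bases before to 50 after a start site), 0.317% held the kB core, 8.3% the GAS motif, 7.81% the AP-1 motif and 13.6% the PU.1 motif. The looser kB consensus (3 G, any 5 bases, then 2 C), found in 50.8% of windows, matched in Icam1, Itgam, Itgav and Cd44 and is not marked. The interferon response motif (GAAA, any 2 bases, then GAAA), in 3.44% of windows, matched in none of the 6 members. The PU.1 motif also matched in Itgav (from -8 to -2) and Cd44 (from -221 to -215), whose sequences are not shown. No motif matched in Itgb1. A match is a run of letters in a window and no measure of binding.

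Icam1 rose in all 6 courses, Vcam1 in the 4 LPS courses, and Itgal in 5, whereas Itgax fell in 3 courses and Itgal in 1. The other 5 members (Itgam, Itgb2, Itgav, Itgb1 and Cd44) never moved by 1 log2 from 0 h. A gene was called as risen or fallen where limma's F-test of the 5 differences from 0 h had a Benjamini-Hochberg adjusted p under 0.05 over all 18820 genes and the largest difference was at least 1. Of 54 pairs of member and course 19 were called, 15 up and 4 down, and 47 had an adjusted p under 0.05 at any size. IFN-beta called 2 of the 9 members, 1 up and 1 down, where 7.92% of all genes were called, 4.05% up and 3.87% down. IFN-gamma called 2 up and 1 down, where 5.37% of all genes were called, 3.1% up and 2.27% down. LPS at 5 ng/ml in BALB/c called 3 up and 1 down, beside 17.2% of all genes, 7.44% up and 9.72% down. In C57BL/6, 50 ng/ml called 3 up and 1 down (15% of all genes, 6.26% up and 8.73% down), 5 ng/ml called 3 up (14.3%, with 5.88% up and 8.41% down) and 0.5 ng/ml called 3 up (9.11%, with 4.02% up and 5.09% down). Each share of members called was thus above that of all genes, a coarse measure for 9 members. The members were chosen with earlier results of these data known, so the shares are a description and no test. The median of the members' largest differences was -0.32 under IFN-beta and -0.24 under IFN-gamma, and 0.69 under LPS in BALB/c. Over all genes these medians were -0.19, -0.19 and -0.19. In C57BL/6 the members' medians were 0.44, 0.51 and -0.10 from the highest to the lowest dose, against -0.17, -0.17 and -0.15 over all genes. The 3 courses of a strain share their 0 h arrays, so they are not independent of each other.

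**Figure D1:**
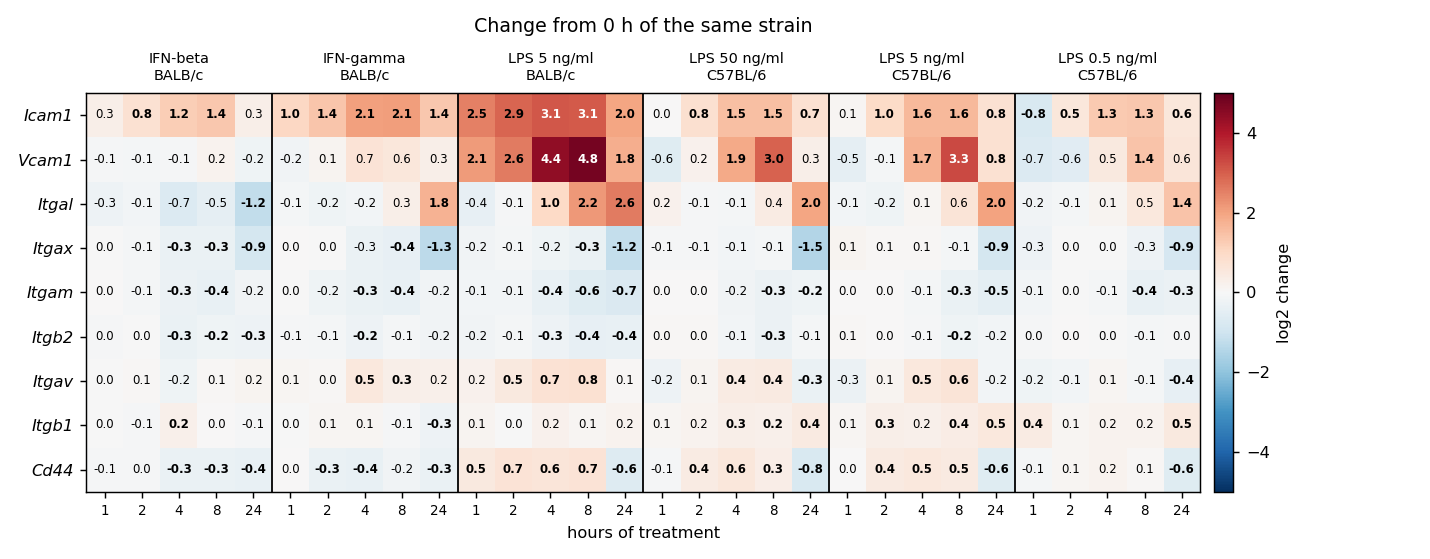
Log2 difference from 0 h of the same strain for each of the 9 members (rows) at 1 to 24 h of each of the 6 courses (columns); red is higher and blue lower than 0 h, each cell is the mean of 2 arrays minus the mean of 2 arrays, and bold numbers have an adjusted p under 0.05 at that time. Vcam1 reaches 4.79 at 8 h of LPS in BALB/c, and Itgax is lowest at 24 h in every course.

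Icam1 encodes the ligand of LFA-1 and Mac-1. In BALB/c its 0 h arrays read 9.51 and 9.47. Under IFN-beta the arrays read 9.72 and 9.88 at 1 h, 10.32 and 10.16 at 2 h, 10.75 and 10.67 at 4 h, 10.82 and 10.89 at 8 h, and 9.91 and 9.63 at 24 h. Under IFN-gamma they read 10.66 and 10.38 at 1 h, 11.02 and 10.70 at 2 h, 11.48 and 11.62 at 4 h, 11.58 and 11.56 at 8 h, and 10.81 and 10.87 at 24 h. No treated array of either course overlapped 0 h, and in both the highest means lay at 8 h. Under LPS at 5 ng/ml the BALB/c arrays were already at 12.07 and 11.97 after 1 h and read 12.34 and 12.45 at 2 h, 12.59 and 12.59 at 4 h, 12.54 and 12.59 at 8 h, and 11.45 and 11.46 at 24 h. The largest differences from 0 h were 1.36 ± 0.11 (SE, n = 2 arrays a group) at 8 h of IFN-beta, a 2.58-fold rise (limma adjusted p = 1.18e-13), 2.09 ± 0.11 at 8 h of IFN-gamma, 4.25-fold (1.15e-17), and 3.10 ± 0.11 at 4 h of LPS, 8.57-fold (2.42e-24). Most of the LPS rise was present at 1 h, where the difference was 2.53. With 1 h in place of 0 h as the base it was 0.57 at 4 h, which no longer met the 1 log2 minimum.

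In C57BL/6 the Icam1 arrays at 0 h stood at 10.95 and 10.78, above BALB/c. At 50 ng/ml they read 10.94 and 10.86 at 1 h, 11.69 and 11.62 at 2 h, 12.39 and 12.32 at 4 h, 12.35 and 12.40 at 8 h, and 11.61 and 11.62 at 24 h. At 5 ng/ml they read 11.09 and 10.84, 11.89 and 11.74, 12.47 and 12.51, 12.49 and 12.48, and 11.63 and 11.65 at the same times. The courses of the higher doses thus left the 0 h range at 2 h, with 1 h arrays that overlapped it. At 0.5 ng/ml the 1 h arrays, at 10.24 and 9.99, lay below both 0 h arrays, with a difference of -0.75 (adjusted p = 3.36e-05 at that time) and of -0.88 without the arrays that stand apart. The value of -0.88 rests on replicate 2 alone, which lies in the 11-array set, where Icam1 differed by -0.18 from the larger set. The later arrays read 11.46 and 11.36 at 2 h, 12.17 and 12.20 at 4 h, 12.16 and 12.23 at 8 h, and 11.56 and 11.28 at 24 h. Icam1 rose by 1.51 at 8 h of 50 ng/ml (2.85-fold), 1.63 at 4 h of 5 ng/ml (3.09-fold) and 1.33 at 8 h of 0.5 ng/ml (2.52-fold), with limma adjusted p of 1.21e-16, 1.84e-17 and 1.19e-18. From 1 h on, Icam1 was higher by 1.48, 1.52 and 2.08 at the same doses.

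Vcam1 encodes the ligand of alpha4 beta1 integrin. Its range over the 32 groups was 5.02 between its highest and lowest group means. The BALB/c 0 h arrays read 4.97 and 4.96. With LPS they read 7.01 and 7.21 at 1 h, 7.67 and 7.45 at 2 h, 9.41 and 9.42 at 4 h, 9.80 and 9.72 at 8 h, and 6.79 and 6.77 at 24 h. All 10 treated arrays lay above both 0 h arrays, and the 4 and 8 h arrays lay above all others. The rise at 8 h was 4.79 ± 0.29 (SE), or 27.7-fold (limma adjusted p = 3.72e-17). From 1 h on it was 2.65.

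In C57BL/6 the Vcam1 arrays read 5.59 and 5.65 at 0 h. At 50 ng/ml of LPS they read 5.17 and 4.85 at 1 h, 5.85 and 5.82 at 2 h, 7.59 and 7.43 at 4 h, 8.62 and 8.53 at 8 h, and 6.06 and 5.74 at 24 h. At 5 ng/ml they read 5.05 and 5.27, 5.31 and 5.73, 7.41 and 7.29, 8.89 and 8.98, and 6.18 and 6.60. The 4 and 8 h arrays at both doses stood clear of 0 h, and none of the 1 h arrays lay above it. At 0.5 ng/ml the arrays read 5.11 and 4.76, 5.11 and 5.03, 6.24 and 5.96, 7.06 and 7.05, and 6.55 and 5.91. The rises at 8 h were 2.95 (7.74-fold, adjusted p = 1.72e-13), 3.31 (9.94-fold, 3.32e-14) and 1.43 (2.7-fold, 2.81e-07) from the highest to the lowest dose, each with an SE of 0.29. Against their 1 h arrays, Vcam1 was higher at 8 h by 3.56, 3.77 and 2.12.

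The interferons gave Vcam1 no call. Under IFN-beta its arrays lay between 4.45 and 5.16, and its largest difference from 0 h was -0.23 at 24 h (adjusted p = 0.886). Under IFN-gamma the arrays at 8 h read 5.52 and 5.55 and those at 24 h 5.12 and 5.37, all above 0 h. The 4 h arrays read 4.81 and 6.46, and the value at that time depended on which was kept: the first belongs to the 11-array set and the second is one of the 5 that stand apart from their replicate. The second array also read higher for the LPS targets Il1b (10.59 against 4.415 in the first) and Nos2 (9.75 against 7.25). Their part in its Vcam1 value was not tested. With both, the difference at 4 h was 0.67 (course adjusted p = 0.11). Without the first it was 1.496, which rests on the second array alone. Without the 5 arrays that stand apart it was -0.16, which rests on the first alone. With the array set as a covariate it was 0.88 (course adjusted p = 0.0126).

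Vcam1 is also made by stromal and endothelial cells, and some markers of these cells varied across the arrays. The mean of 7 stromal markers ran from 4.02 to 5.25 over the groups, and in BALB/c it was 4.42 at 0 h, 5.25 at 8 h of LPS and 5.22 at 24 h. The mean of 6 endothelial markers ran from 4.46 to 5.35. Among them Kdr varied from 5.87 to 10.2, Pdgfrb from 4.13 to 9.20 and Dcn from 3.12 to 7.80 over the 64 arrays, with Dcn under the 40th percentile in 49, while Lum, Pdgfra, Tek and Emcn stayed under it in all. Their part in the Vcam1 result was not tested.

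**Figure D2:**
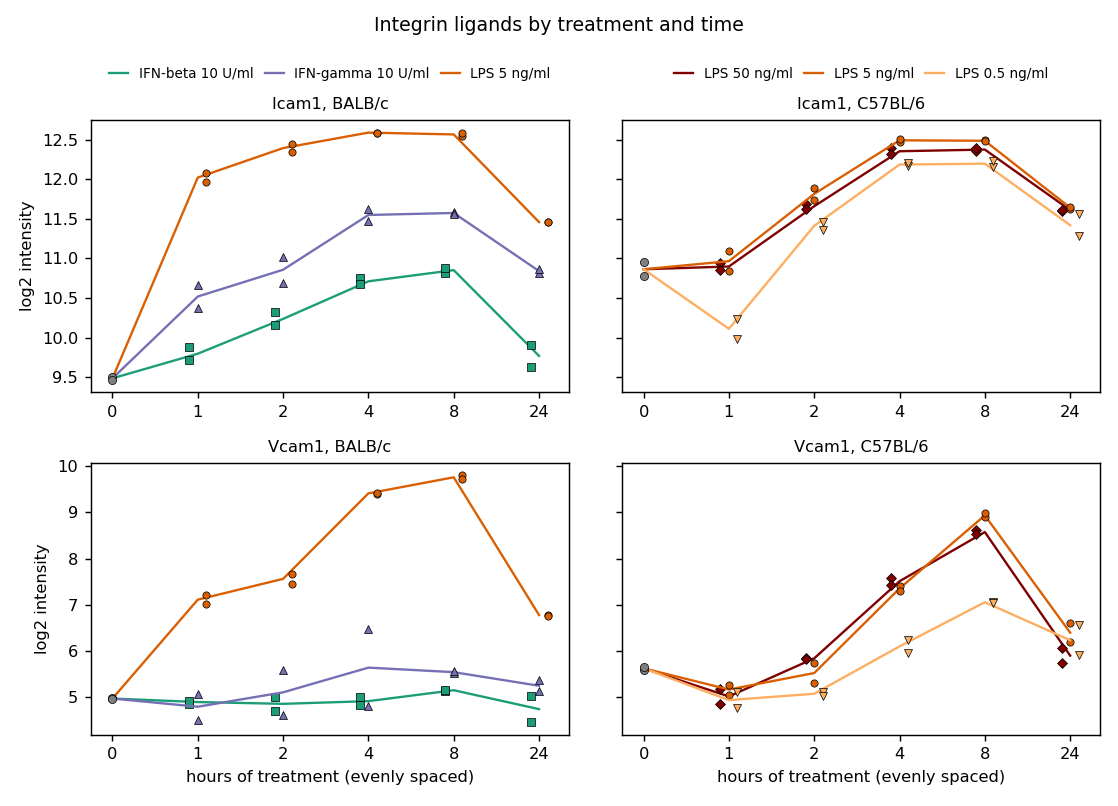
Log2 intensity of Icam1 and Vcam1 (rows) against hours of treatment, evenly spaced, in BALB/c (left) and C57BL/6 (right); points are single arrays and lines join the means of 2 arrays. Icam1 in BALB/c is near its LPS plateau at 1 h (12.07 and 11.97), whereas Vcam1 is highest at 8 h in all LPS courses and stays near its 0 h level under IFN-beta.

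Itgal encodes the alpha chain of LFA-1, the integrin that binds ICAM-1. Its rise was late. In BALB/c the 0 h arrays read 8.26 and 8.35, and under LPS the arrays read 8.26 and 7.52 at 1 h, 8.29 and 8.22 at 2 h, 9.35 and 9.28 at 4 h, 10.49 and 10.46 at 8 h, and 11.18 and 10.64 at 24 h. The arrays from 4 h on lay above 0 h, by 1.01 at 4 h, 2.17 at 8 h and 2.60 ± 0.27 (SE) at 24 h, a 6.07-fold rise (limma adjusted p = 1.82e-13). Under IFN-gamma the arrays stayed between 7.37 and 8.93 up to 8 h and read 10.12 and 10.00 at 24 h, a rise of 1.75 or 3.37-fold (5.39e-07). The 4 h arrays of that course, at 7.37 and 8.93, were again far apart.

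IFN-beta took Itgal the other way. Its arrays read 8.11 and 7.98 at 1 h, 8.18 and 8.17 at 2 h, 7.78 and 7.49 at 4 h, 7.87 and 7.82 at 8 h, and 7.29 and 6.85 at 24 h. None of the 10 overlapped the 0 h arrays. Both 4 h arrays lie in the 11-array set, where Itgal differed by -0.62 from the larger set, and both 0 h arrays lie in the larger. The 4 h difference of -0.67 thus cannot tell treatment from array set. Itgal fell by 1.24 at 24 h, 2.35-fold (limma adjusted p = 0.00276). The call was not kept under several alternatives. Without the 24 h replicate 2 array, which lies in the 11-array set, the difference was -1.01 with an adjusted p of 0.0728. With the array set as a covariate it was -0.92 (6.23e-05) and counted from 1 h -0.98 (0.00754), both short of 1 log2. Within the 53-array set, which leaves out the same array, it was -1.01 (1.1e-05) and still met the rule.

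The Itgal arrays of C57BL/6 read 9.19 and 9.24 at 0 h. At 50 ng/ml of LPS they read 9.74 and 9.12 at 1 h, 9.56 and 9.66 at 8 h, and 11.16 and 11.23 at 24 h. At 5 ng/ml they read 9.04 and 9.11, 9.85 and 9.84, and 11.29 and 11.17 at these times. The 24 h arrays at 0.5 ng/ml read 10.87 and 10.40, with 8 h arrays at 9.76 and 9.75. At 24 h all 3 doses were far above 0 h: 1.98 at 50 ng/ml (3.95-fold, adjusted p = 4.53e-08), 2.02 at 5 ng/ml (4.05-fold, 1.1e-08) and 1.43 at 0.5 ng/ml (2.69-fold, 2.09e-05). Against 1 h, Itgal was higher by 1.77, 2.15 and 1.60.

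Itgax encodes the alpha chain CD11c, used as a marker of dendritic cells and of some macrophages. It fell late in both strains. In BALB/c the 0 h arrays read 9.95 and 9.82, and the 24 h arrays read 9.09 and 8.92 under IFN-beta, 8.51 and 8.67 under IFN-gamma, and 8.78 and 8.59 under LPS. All 6 of the 24 h arrays lay below 0 h. The differences at 24 h were -0.88 under IFN-beta (adjusted p = 1.77e-07, short of the 1 log2 minimum), -1.30 under IFN-gamma (2.46-fold, 1.01e-11) and -1.20 under LPS (2.3-fold, 7.8e-11), each with an SE of 0.12. At 8 h the same 3 differences were -0.35, -0.41 and -0.33.

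In C57BL/6 Itgax stood at 8.23 and 8.18 at 0 h, and every array of 1 to 8 h lay between 7.79 and 8.33. At 24 h the arrays read 6.71 and 6.73 at 50 ng/ml of LPS, 7.31 and 7.33 at 5 ng/ml, and 7.62 and 7.09 at 0.5 ng/ml, all below the earlier range. Itgax fell by 1.48 at 50 ng/ml (2.8-fold, adjusted p = 3.22e-14). The differences at 5 and 0.5 ng/ml, -0.89 and -0.85, did not reach 1 log2. They did so at 5 ng/ml when counted from 1 h (-1.01) and at 0.5 ng/ml without replicate 1 of the 24 h group (-1.12). The value of -1.12 rests on replicate 2 alone (7.09), which lies in the 11-array set, where Itgax differed by -0.21 from the larger set. Against 1 h, Itgax at 24 h gave -1.41 at 50 ng/ml and -0.59 at 0.5 ng/ml. Markers of dendritic cells were dim: the mean of 6 ran from 3.71 to 4.59 over the groups, with its lowest value at 24 h of LPS and its highest at 24 h of IFN-gamma in BALB/c. Flt3, Clec9a, Xcr1 and Siglech lay under the 40th percentile in 56, 60, 61 and 54 of the 64 arrays. Zbtb46 and Cd209a did so in only 11 and 8, with highest arrays at 4.99 and 5.78. The highest array of Clec9a read 7.51. The granulocyte and precursor mean was also lowest at 24 h, at 4.56, 4.45 and 4.63 in the BALB/c courses against 4.92 at 0 h, and at 5.03, 4.90 and 5.25 over the falling doses in C57BL/6 against 5.65. The part of these markers in the Itgax result was not tested.

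Itgam and Itgb2, the chains of Mac-1, moved little. Itgam in BALB/c read 11.37 and 11.39 at 0 h and 10.73 and 10.62 at 24 h of LPS, lower by 0.71 ± 0.07 (SE) with no overlap (limma adjusted p = 8.3e-12). Under both interferons its largest difference was at 8 h, -0.36 for IFN-beta and -0.38 for IFN-gamma. The same direction held in C57BL/6, where Itgam read 11.43 and 11.47 at 0 h and was lower by 0.28 at 8 h of 50 ng/ml, 0.49 at 24 h of 5 ng/ml and 0.36 at 8 h of 0.5 ng/ml. Itgb2 read 12.07 and 12.11 at 0 h in BALB/c and 11.65 and 11.69 at 8 h of LPS, lower by 0.42 ± 0.07 (3.9e-05). In C57BL/6 Itgb2 was lower by at most 0.29, at 8 h of 50 ng/ml (0.00136), and at 0.5 ng/ml its largest difference was -0.10 (0.782). Against 1 h in C57BL/6, Itgam gave -0.30, -0.50 and -0.22, and Itgb2 gave -0.33, -0.26 and 0.07, as their largest differences from the highest to the lowest dose. The shared beta chain thus spanned 0.51 over the 32 groups, while its partners Itgal, Itgax and Itgam spanned 4.16, 3.18 and 0.80.

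**Figure D3:**
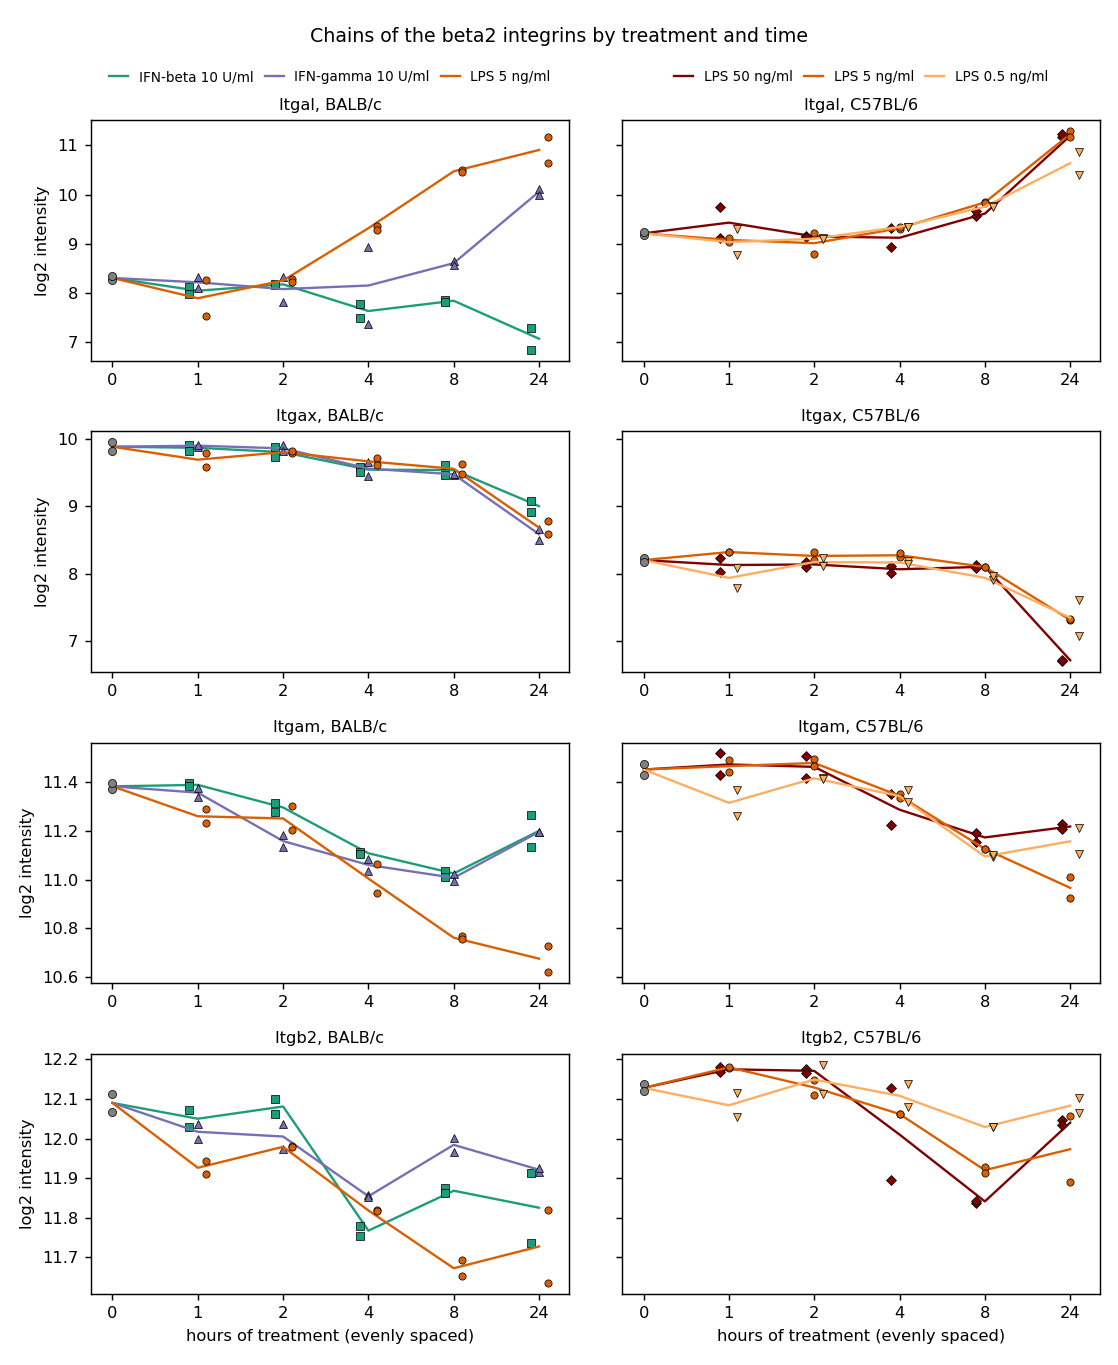
Log2 intensity of the beta2 integrin chains Itgal, Itgax, Itgam and Itgb2 (rows) against hours of treatment, evenly spaced, in BALB/c (left) and C57BL/6 (right); points are single arrays and lines join the means of 2 arrays, and each row has its own axis range. Within each LPS course Itgal is highest and Itgax lowest at 24 h, and in BALB/c Itgax is as low at 24 h of IFN-gamma (8.51 and 8.67), while Itgb2 stays between 11.6 and 12.2 in every array.

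Among the receptors for matrix, Itgav, the alpha chain of the vitronectin receptors, was higher under LPS for part of the course. In BALB/c it read 10.09 and 10.03 at 0 h, 10.81 and 10.84 at 8 h of LPS and 10.13 and 10.13 at 24 h, a difference of 0.77 ± 0.10 (SE) at 8 h (limma adjusted p = 2.81e-09) and 0.07 at 24 h. In C57BL/6 it read 10.68 and 10.62 at 0 h and 11.26 and 11.34 at 8 h of 5 ng/ml, higher by 0.65, and at 50 ng/ml it was higher by 0.44. At 0.5 ng/ml the largest difference had the other sign, -0.39 at 24 h (0.00253). Against 1 h, Itgav was higher by 0.67 at 8 h of 50 ng/ml, by 0.94 at 8 h of 5 ng/ml and by 0.30 at 4 h of 0.5 ng/ml, so at the lowest dose the sign depends on the base. IFN-gamma gave 0.52 at 4 h (0.000471) and IFN-beta -0.21 at 4 h (0.0664).

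Itgb1, the beta chain shared by many matrix receptors, differed little in BALB/c, where its largest differences were 0.24 under IFN-beta (adjusted p = 0.0515), -0.26 under IFN-gamma (0.014) and 0.21 under LPS (0.126). In C57BL/6 Itgb1 was higher at 24 h of all 3 doses, by 0.44, 0.51 and 0.47 from the highest to the lowest. The 24 h arrays at 5 ng/ml read 11.04 and 11.19, against 10.59 and 10.63 at 0 h. Against 1 h, Itgb1 at 24 h was higher by 0.35 and 0.40 at the upper doses, but by 0.046 at 0.5 ng/ml (adjusted p = 0.802 at that time), where its 1 h arrays read 11.08 and 10.98 and its largest difference was -0.34 at 2 h.

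Cd44, the main receptor for hyaluronan, went both ways within the LPS courses. In BALB/c it read 10.22 and 10.23 at 0 h, 10.93 and 10.91 at 8 h and 9.70 and 9.50 at 24 h, so it was higher by 0.69 ± 0.09 (SE) and then lower by 0.63. Neither difference from 0 h reached 1 log2, but counted from 1 h the difference at 24 h was -1.13 (adjusted p = 5.02e-16), which met the rule for a fall. Its 24 h arrays in C57BL/6 read 9.50 and 9.50, 9.64 and 9.69, and 9.65 and 9.65 from the highest to the lowest dose, against 10.31 and 10.23 at 0 h. Against 1 h, the Cd44 differences at 24 h were -0.70, -0.64 and -0.50. The 24 h arrays of all LPS courses lay below every other array of their strain. Under the interferons Cd44 was lower by 0.37 at 24 h of IFN-beta and by 0.35 at 4 h of IFN-gamma.

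**Figure D4:**
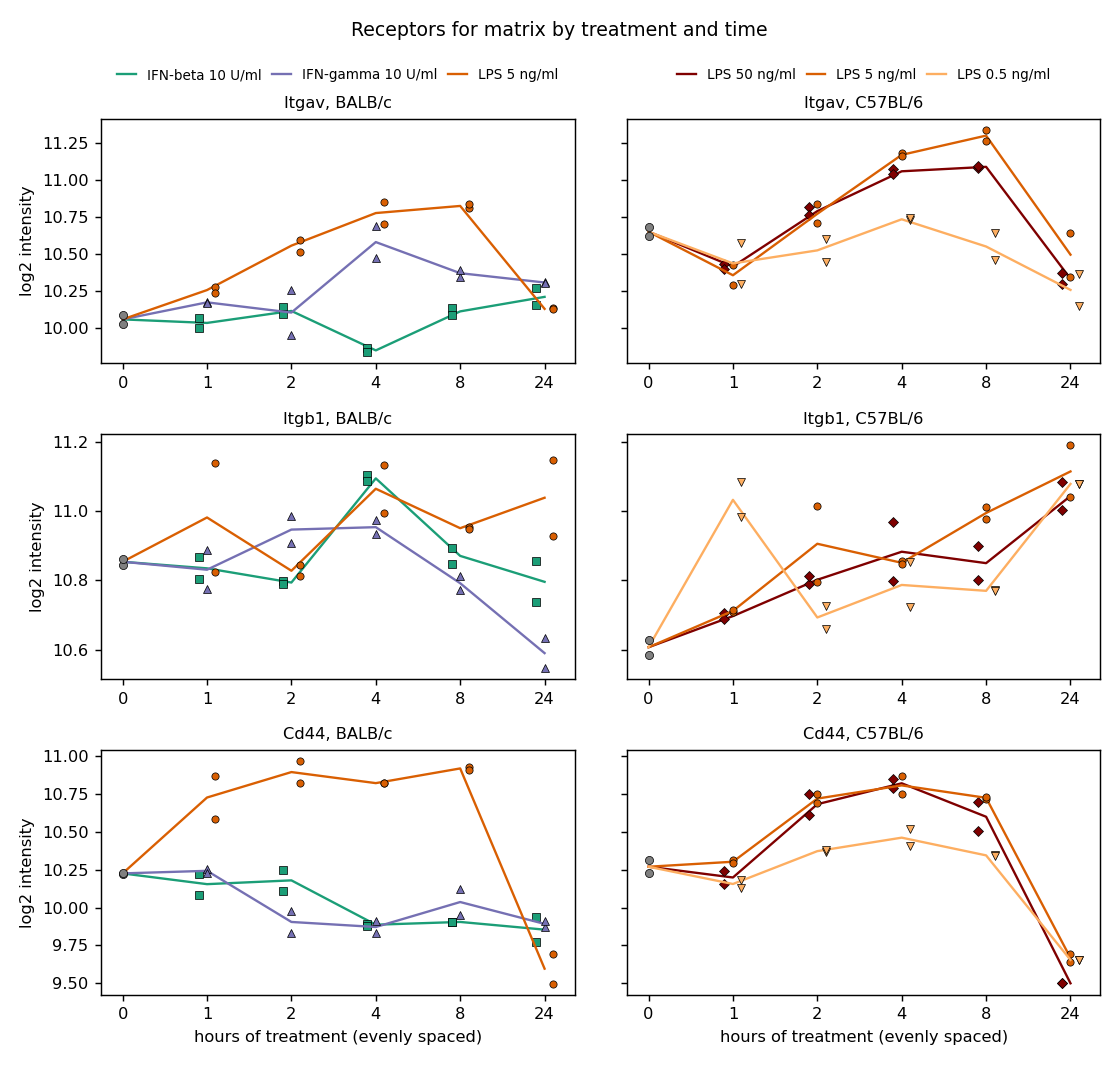
Log2 intensity of Itgav, Itgb1 and Cd44 (rows) against hours of treatment, evenly spaced, in BALB/c (left) and C57BL/6 (right); points are single arrays, lines join the means of 2 arrays, and the axis ranges differ between rows. Cd44 lies at 10.59 or above at 1 to 8 h of LPS in BALB/c and at 9.70 and 9.50 at 24 h.

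The 3 treatments of BALB/c cells were next set against each other at matching times, where a negative difference means lower under the treatment named first. These comparisons share arrays. IFN-beta against IFN-gamma called 2 members, both lower, where 3.96% of all genes were called, 2.06% higher and 1.9% lower. Itgal under IFN-beta differed by -2.99 at 24 h, 7.94-fold (limma adjusted p = 1.23e-09). Icam1 was lower at every time, with differences from -0.62 to -1.07 and no overlap (largest at 24 h, 2.1-fold, 1.42e-13). The Icam1 call ended without IFN-beta 24 h replicate 2 (-0.93), within the 53-array set (-0.93) and with the array set as a covariate (-0.98). Vcam1 was not called, with -0.73 at 4 h (adjusted p = 0.18). Without IFN-gamma 4 h replicate 1 its difference was -1.55, which rests on replicate 2 alone, an array that stands apart. Both IFN-beta 4 h arrays lie in the smaller array set, where Vcam1 differed by -0.42 from the larger set, and IFN-gamma 4 h replicate 2 lies in the larger. The value of -1.55 thus cannot tell treatment from array set.

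IFN-beta against LPS called 4 members, all lower under IFN-beta, beside 14.3% of all genes, 8.06% higher and 6.19% lower. The differences were -2.22 for Icam1 at 1 h (4.67-fold, adjusted p = 2.66e-26), -4.61 for Vcam1 at 8 h (24.5-fold, 4.91e-21), -3.84 for Itgal at 24 h (14.3-fold, 4.24e-16) and -1.01 for Cd44 at 8 h (2.02-fold, 3.17e-16). The Cd44 value was -0.98 after quantile normalisation, short of the minimum. Itgav differed by -0.93 at 4 h, and its value reached the minimum without LPS 4 h replicate 2. IFN-gamma against LPS called 3, all lower under IFN-gamma, beside 13.6% of all genes, 7.51% higher and 6.09% lower. These were Icam1 with -1.53 at 2 h (2.9-fold, adjusted p = 1.18e-19), Vcam1 with -4.22 at 8 h (18.7-fold, 2e-19) and Itgal with -1.87 at 8 h (3.65-fold, 2e-07). Cd44 had -0.99 at 2 h (1.33e-16), and it met the rule, with -1.06, without IFN-gamma 2 h replicate 1 or without LPS 2 h replicate 1. The Icam1 gap between IFN-gamma and LPS narrowed in these means from -1.53 at 2 h to -1.04 at 4 h and -0.62 at 24 h. No member stood higher by 1 log2 under either interferon than under LPS. For Itgax the difference between IFN-gamma and LPS at 24 h was -0.10, with a 95% interval from -0.33 to 0.14.

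The LPS dose series in C57BL/6 does not use the 0 h arrays. Raising the dose from 0.5 to 50 ng/ml called 1 member, Vcam1, as higher, beside 3.72% of all genes, 2.01% higher and 1.71% lower. At 8 h the Vcam1 arrays read 7.06 and 7.05 at 0.5 ng/ml, 8.89 and 8.98 at 5 ng/ml, and 8.62 and 8.53 at 50 ng/ml, so both higher doses stood clear of the lowest. Vcam1 was higher at 8 h by 1.52 ± 0.29 (SE) at 50 against 0.5 ng/ml (2.87-fold, limma adjusted p = 1.18e-05) and by 1.88 at 5 against 0.5 ng/ml (3.68-fold, 1.07e-05), where 2.16% of all genes were called, 1.16% higher and 0.999% lower. At 24 h the same differences were -0.33 and 0.16. Icam1 differed by dose at 1 h, higher by 0.79 at 50 and by 0.85 at 5 than at 0.5 ng/ml (0.87 and 0.98 without the arrays that stand apart), and by 0.17 and 0.31 at 4 h.

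Between 50 and 5 ng/ml no member was called by limma, beside 0.228% of all genes, 0.175% higher and 0.0531% lower, and 2 members, Itgam and Itgax, had an unadjusted F-test p under 0.05. For Icam1 the largest difference was -0.16 at 2 h (95% interval from -0.38 to 0.07), and for Vcam1 it was -0.50 at 24 h (from -1.08 to 0.08). Itgax at 24 h differed by -0.60 (adjusted p = 0.0227), short of 1 log2, and 50 against 0.5 ng/ml gave -0.63 (0.00108). The 24 h replicate 2 array of 5 ng/ml is one of those that stand apart. Itgav at 8 h was higher by 0.54 at 50 and by 0.75 at 5 than at 0.5 ng/ml, and Cd44 was higher by 0.36 at 4 h and 0.38 at 8 h.

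**Figure D5:**
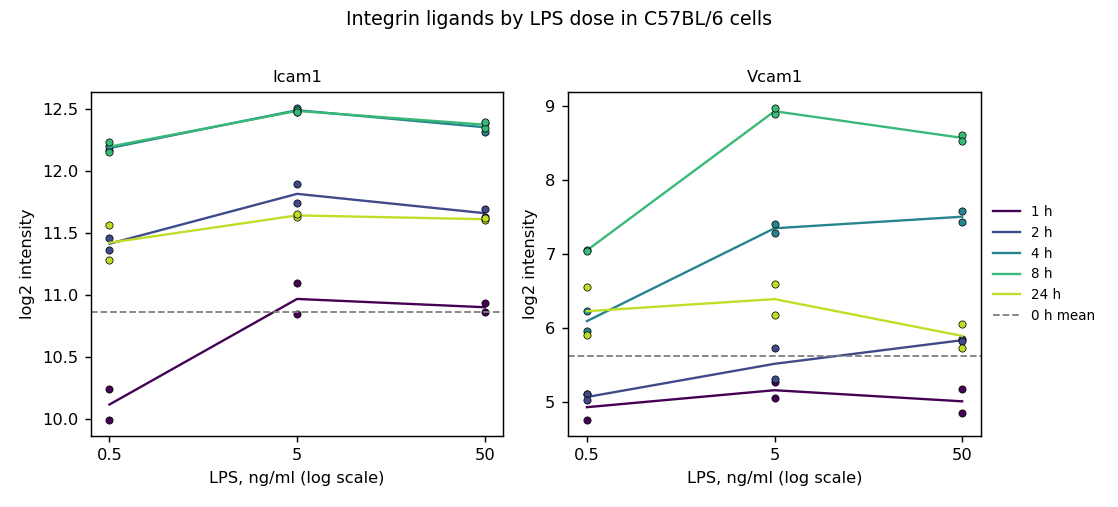
Log2 intensity of Icam1 (left) and Vcam1 (right) in C57BL/6 cells against the LPS dose on a log scale, one line per time; points are single arrays, lines join the means of 2 arrays, and the dashed line is the 0 h mean. Vcam1 at 8 h goes from 7.06 and 7.05 at 0.5 ng/ml to 8.89 and 8.98 at 5 ng/ml, and Icam1 separates by dose mainly at 1 h.

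The strains were compared at LPS 5 ng/ml and at 0 h. Under LPS 4 members were called, beside 5.53% of all genes, 3.52% higher and 2.01% lower in BALB/c, and the differences are BALB/c minus C57BL/6. Itgax was higher in BALB/c at every time, by 1.37 at 1 h, 1.54 at 2 h (2.9-fold, limma adjusted p = 4.67e-21), 1.39 at 4 h, 1.45 at 8 h and 1.37 at 24 h, and at 0 h by 1.68 (3.2-fold, 3.3e-14). No Itgax array of one strain overlapped those of the other at any of these times. Icam1 was higher in BALB/c by 1.05 at 1 h (2.08-fold, 2.32e-09) and by 0.58 at 2 h, and at 4 h the difference was 0.10. Without C57BL/6 1 h replicate 2 the 1 h value was 0.93, and after quantile normalisation 0.99.

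Vcam1 under LPS was higher in BALB/c by 1.95 at 1 h, 2.04 at 2 h and 2.06 at 4 h (4.17-fold, adjusted p = 8e-11), then by 0.83 at 8 h and 0.38 at 24 h. Itgal differed by -1.19 at 1 h (2.27-fold, 0.000929), and by -0.81 without BALB/c 1 h replicate 2, which ended that call; within the 53-array set the largest difference was -0.97, at 2 h. At 0 h 2 members were called, beside 2.36% of all genes, 1.1% higher and 1.26% lower in BALB/c: Itgax, above, and Icam1, at -1.38 (2.6-fold, 2.34e-12). Both rest on the C57BL/6 0 h arrays with their LPS-target transcripts. For Icam1 these arrays, at 10.95 and 10.78, lay above the 10.24 and 9.99 of 1 h at 0.5 ng/ml. Of the latter, replicate 1 stands apart and replicate 2 lies in the 11-array set. They overlapped the 1 h arrays at 5 ng/ml (11.09 and 10.84) and at 50 ng/ml (10.94 and 10.86). Itgax differed between the strains at the treated times too. The granulocyte and precursor markers also differed between the strains: their group means ran from 4.45 to 4.92 in BALB/c and from 4.90 to 5.89 in C57BL/6, with 4.92 and 5.65 at 0 h and 4.84 and 5.69 at 4 h of LPS at 5 ng/ml. Their part in the strain differences was not tested. The 0 h differences of Itgal and Itgav were -0.91 (0.0229) and -0.59 (3.69e-05).

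The change from 0 h under LPS at 5 ng/ml was larger in BALB/c for 3 members, beside 4.68% of all genes called, 3.27% with the higher and 1.4% with the lower change in BALB/c: Icam1 by 2.43 ± 0.16 (SE) at 1 h (5.39-fold, limma adjusted p = 6.1e-13), Vcam1 by 2.72 ± 0.41 at 4 h (6.57-fold, 2.89e-06) and Itgal by 1.54 ± 0.38 at 8 h (2.91-fold, 0.00457). These values rest on the C57BL/6 0 h arrays. With changes taken from 1 h, the difference for Icam1 was -1.24 at 24 h (1.27e-06) and that for Vcam1 -1.57 at 24 h (0.00293), so both turned in sign. That for Itgal was 1.82 at 8 h (0.00609). By 1 h, however, Icam1 and Vcam1 in BALB/c had already risen from 0 h by 2.53 and 2.14. A 1 h base leaves this early rise out, so the turned sign cannot be read as a weaker response in BALB/c. For Itgax the change from 0 h differed by -0.31 at 24 h (0.552), and taken from 1 h by -0.0018 ± 0.16 (SE) at 24 h.

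Between 8 and 24 h the members parted. In BALB/c under LPS 3 members fell between these times, beside 6.06% of all genes, 3.28% up and 2.78% down: Vcam1 fell by 2.98, Cd44 fell by 1.32 and Icam1 fell by 1.11. In C57BL/6 at 50 ng/ml, where 6.21% of all genes were called (3.17% up and 3.03% down), Vcam1 fell by 2.68 and Itgax fell by 1.39, Cd44 fell 2.14-fold, and Itgal rose by 1.58. At 5 ng/ml (5.86% of all genes, 3.08% up and 2.78% down) Vcam1 fell by 2.54 and Cd44 fell by 1.06, and Itgal rose by 1.39. At 0.5 ng/ml limma called none of the members, beside 3.1% of all genes (1.37% up and 1.73% down). Of the members 7 had an adjusted p under 0.05 but differed by less than 1 log2. Here Cd44 differed by -0.69 (adjusted p = 1.95e-07) and Itgal by 0.88 (0.0174). Itgal was higher by 1.12 there without replicate 2 of the 24 h group, and Vcam1 differed by -1.14 without replicate 1. Under IFN-beta Icam1 fell by 1.08 (2.32% of all genes called, 0.808% up and 1.51% down), with -0.94 without 24 h replicate 2, and under IFN-gamma Itgal rose by 1.45 (0.792%, with 0.425% up and 0.367% down).

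Other genes of adhesion were taken from 4 lists of 71 genes, of which 68 were measured. The lists were also chosen with earlier results of these data known. Under IFN-beta 2 rose and 4 fell, under IFN-gamma 3 and 4, under LPS in BALB/c 9 and 13, and in C57BL/6 8 and 7 at 50 ng/ml, 9 and 6 at 5 ng/ml, and 2 and 6 at 0.5 ng/ml. As shares of the 68 these were 8.82%, 10.3%, 32.4%, 22.1%, 22.1% and 11.8%, against 7.92%, 5.37%, 17.2%, 15%, 14.3% and 9.11% of all genes. In the BALB/c LPS course 3 of 20 other integrin subunits rose and 6 fell, 4 of 15 receptors and ligands rose and 2 fell, none of 25 genes of integrin activation and actin linkage rose and 3 fell, and 2 of 8 matrix genes rose and 2 fell.

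Itgb8, a partner of Itgav in the receptor that activates latent TGF-beta, rose by 6.43 at 8 h of LPS in BALB/c, to a mean of 10.60 from 4.17, and by 3.32, 3.85 and 1.96 from the highest to the lowest dose in C57BL/6. Its BALB/c 0 h mean lay under the 40th percentile of all values (4.19), where no background signal was used to place it, so the size of that rise is less certain than its direction. Itgb3, the beta chain of the vitronectin receptor, fell by 2.45 in BALB/c under LPS and fell by 1.67 under IFN-gamma. Itga4, the partner chain of the VCAM-1 receptor, chosen after its values were seen, rose by 1.54 at 8 h of LPS in BALB/c. Itga6, a laminin receptor chain, fell by 2.05 at 24 h of 0.5 ng/ml, while Itga8, a chain that pairs with Itgb1, fell by 2.52 at 24 h of 50 ng/ml and fell by 2.40 at 24 h of 5 ng/ml. The other integrin subunits thus went in both directions.

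Selp, which encodes P-selectin, rose under IFN-gamma by 3.74 at 4 h, to a mean of 7.57, and by 2.30 at 1 h and 2.54 at 8 h, with a mean of 3.74 at 24 h. Its 0 h mean, 3.82, lay under the same percentile, so these sizes carry the same limit, and replicate 2 at 4 h is one of the arrays that stand apart. Under IFN-beta and LPS in BALB/c its largest differences from 0 h were 0.57 and -0.17, and IFN-beta against IFN-gamma gave -3.35 at 4 h. For Sele, E-selectin, IFN-beta against LPS gave -2.67 and IFN-gamma against LPS -2.58 at 1 h, with interferon means of 3.91 and 3.99 that also lay under it, and 50 against 0.5 ng/ml of LPS gave 2.11 at 2 h. Thbs1, thrombospondin, rose in all 6 courses, by 3.13 under IFN-beta, 1.28 under IFN-gamma, 4.37 under LPS in BALB/c and 3.63, 3.22 and 2.29 over the falling doses. Fn1, fibronectin, fell by 1.48 under IFN-beta and fell by 1.66 under IFN-gamma at 24 h. Hmmr, a hyaluronan-binding protein of dividing cells, fell at 24 h in all 6 courses, with -1.23 under IFN-beta, -1.11 under IFN-gamma, -3.41 under LPS in BALB/c and -3.45, -3.22 and -3.03 over the falling doses. Cytip, a binding partner of cytohesin, which acts on LFA-1, fell by 1.32 at 8 h of IFN-beta.

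Across the 32 groups the highest and lowest means of each member were read in order, with neighbours that overlapped counted among the 31 steps. Icam1 ran from 12.59 (LPS 4 h, BALB/c) to 9.49 (BALB/c 0 h), and 15 of its steps were between overlapping neighbours. Vcam1 ran from 9.76 (LPS 8 h, BALB/c) to 4.74 (IFN-beta 24 h), with 22 overlaps, and its top 4 groups, the 8 and 4 h groups of LPS in BALB/c and the 8 h groups of 5 and 50 ng/ml in C57BL/6, each stood clear of the next. Itgal ran from 11.23 (C57BL/6, 5 ng/ml at 24 h) to 7.07 (IFN-beta 24 h), with 21 overlaps. For Itgax, from 9.90 (IFN-gamma 1 h) to 6.72 (50 ng/ml at 24 h) and with 24 overlaps, every BALB/c group stood above every C57BL/6 group. Itgav ran from 11.30 to 9.85 and Cd44 from 10.92 to 9.50, with 23 and 26 overlaps. Itgam, Itgb2 and Itgb1, with spans of 0.80, 0.51 and 0.53, had 23, 26 and 27, so most of their neighbouring groups overlapped. These counts say nothing of groups further apart in the order.

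The members' group means were also compared with each other and with 7053 genes that spanned at least 1 log2, as a description over 32 groups that share strains and 0 h arrays. Icam1 and Vcam1 had a Pearson correlation of 0.826, Itgam and Itgb2 0.842, Icam1 and Itgav 0.754, and Itgax and Itgal -0.719. The genes most like Icam1 were Nfkbie (0.920), an inhibitor of NF-kB, Tnfaip2 (0.918) and Marcksl1 (0.914). Those most like Vcam1 were Sbds and Tnn (0.945 each) and Mycl (0.929). For Itgal they were Sema4a (0.938), Ak4 (0.924) and Cst7 (0.906), and for Itgax Arsb (0.978), Npdc1 (0.97) and Fam149a (0.963). Fry (0.927), Abcc3 (0.907) and Afap1l1 (0.904) were most like Itgam, and Steap3 (0.880), Ptp4a3 (0.870) and Sipa1l2 (0.860) most like Itgb2. Itgav was matched by Trim36 (0.908), Phxr4 (0.879) and Tlnrd1 (0.853), and Cd44 by Dpep3 (0.899), Syne2 (0.889) and Sdc4 (0.869). Itgb1 was matched by Rabl3 (0.832), Tax1bp1 (0.829) and Tmem165 (0.807).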

How the data were processed

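Per the labels, biotin-labelled RNA (250 ng of total RNA a sample) was hybridised to Affymetrix whole-transcript arrays. Affymetrix Expression Console 1.1 appears in the submitters' processing notes. The authors deposited linear intensity, already normalised by a method not given in the sources used here, as read from values of 2.49 to 17782 and array medians of 25.6 to 29.0. The array's genome build is not given in the sources used here. The number of arrays limits the precision.

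Log2 of the intensity was used with no filter and no further normalisation. Of 35556 probe sets, 21218 carry a single gene symbol, 1881 several and 12457 none, and 21185 of those with a single symbol matched the reference by Entrez identifier. For 1386 genes with several such probe sets the brightest was kept. Replicate arrays correlated at 0.992 to 0.998 across genes.

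All 64 arrays entered a single fit in R 4.3.3 with limma 3.58.1, with F-tests of each course's or pair's 5 differences, moderated tests at single times, and p-values adjusted by Benjamini-Hochberg over 18820 genes. A call needs an adjusted p under 0.05 and a difference of at least 1 log2. The named genes are the 9 members, up to 4 called genes of the adhesion lists per comparison with the largest change, the 3 genes most like each member, and markers of other cell types that were dimmest or moved. The members and lists were chosen with earlier results of these data known. In simulated data of 18820 genes the BALB/c LPS course recovered 98% of 50 genes that had been raised by 1.5 log2, and the strain response 90%. The simulated noise was independent between arrays. It held neither the split into array sets nor arrays that stand apart, so recovery in the real arrays may differ. Replicate numbers were not used to pair arrays: over 496 pairs of groups the correlation of same-numbered deviations had a median of 0.0046. Alternatives were quantile normalisation, centring of each array, dropping dim genes, averaged probe sets, only the arrays compared, a robust variance trend, no minimum change, the replicate block, the array set as a covariate or its larger part alone, changes taken from 1 h, and arrays left out. Promoters are RefSeq's (GRCm38.p6). Figures were drawn with matplotlib 3.10.9 in Python 3.11.15, with pandas 2.3.3 and numpy 2.4.6.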

Additional observations from a re-analysis of the deposited data

Results flagged for a closer look

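For 3 members the response to LPS at 5 ng/ml differed between the strains by the test of that difference itself, with the larger change from 0 h in BALB/c: Icam1 by 2.43 at 1 h (limma adjusted p = 6.1e-13), Vcam1 by 2.72 at 4 h (2.89e-06) and Itgal by 1.54 at 8 h (0.00457). All 3 use the C57BL/6 0 h arrays, in which Nos2 read 10.63 and 10.44 against 3.54 and 3.78 in BALB/c. Their part in the difference was not tested. Counted from 1 h, the difference for Icam1 was -1.24 and that for Vcam1 -1.57, both at 24 h and both called in the other direction. That for Itgal was 1.82 at 8 h and kept its direction. Its BALB/c 1 h base holds replicate 2 (7.52), which lies in the 11-array set, where Itgal differed by -0.62 from the larger set. The 1 h base leaves out the BALB/c rise up to that time, 2.53 for Icam1 and 2.14 for Vcam1. The turned sign thus cannot be read as a weaker response in BALB/c.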

How the results depend on the processing

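Of the counts of called members over all comparisons and alternatives, leaving out single arrays apart, 212 stayed within 1.5 times of the main count and 26 moved. With no minimum change the members called were 6 under IFN-beta, 7 under IFN-gamma and 8 under LPS in BALB/c, 9, 9 and 8 over the falling LPS doses in C57BL/6, 8 for IFN-gamma against LPS, 6, 1 and 5 for 50 against 0.5, 50 against 5 and 5 against 0.5 ng/ml, 8 and 4 for the strains under LPS and at 0 h, and, at 24 against 8 h, 3, 3 and 5 in the BALB/c courses and 7, 6 and 7 in C57BL/6. With the array set as a covariate the IFN-beta course called 1 member, its comparison with IFN-gamma 1, and there were 0 for IFN-beta at 24 against 8 h and 1 for 0.5 ng/ml at 24 against 8 h. Within the 53-array set the last 3 counts were also 1, 0 and 1. Counted from 1 h, IFN-beta called 1. Without 1 array at a time the counts ran from 1 to 2 in the IFN-beta course, 1 to 3 between the interferons, 0 to 1 for IFN-beta at 24 against 8 h and the same for 0.5 ng/ml at 24 against 8 h. Counted from 1 h, a base that leaves out the BALB/c rise up to that time, the strain response turned to -1.24 for Icam1 and -1.57 for Vcam1. The cause of these changes was not tested. The replicate block changed no member's call (2 called under IFN-beta with the replicate block, as without it). Centring each array on its median moved the median of all genes by at most 0.124. Of the single calls, 571 kept their side and direction under alternatives and 651 without 1 array, while 10 and 5 fell short of the threshold. Vcam1 read 4.97 at 0 h in BALB/c, not far above the 40th percentile of all values (4.19), and no background signal was used here.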
